A study of Homo sapiens with 12 samples.

Results

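The genes described here are the enzymes of serine synthesis, the folate enzymes that carry carbon units taken from serine, and asparagine synthetase. They were chosen by name, by matching the Ensembl gene IDs of the deposited count table to the symbols PHGDH, PSAT1, PSPH, SHMT1, SHMT2, MTHFD1, MTHFD1L, MTHFD2, ALDH1L2 and ASNS, and all 10 were found among the 62703 genes of the table. Gene positions below are those of the table, on GRCh38. The RNA came from H69, a normal human cholangiocyte line (bile duct epithelium) immortalised with SV40 large T antigen. The 4 groups of 3 libraries each were TGFβ with Aramchol, TGFβ alone, Aramchol alone, and vehicle. TGFβ, a cytokine that drives fibrosis and epithelial change in the liver, was given at 10 ng/mL, and Aramchol, a conjugate of a bile acid and a fatty acid known to inhibit stearoyl-CoA desaturase, at 30 µM. All 4 groups shared 6 hours without serum beforehand and an overnight treatment in medium that still lacked serum, so every library, the vehicle libraries included, comes from serum-deprived cells of a single line. Nothing in the labels says whether the 3 libraries of a group came from separate cultures, so the p-values below measure the spread between libraries, which may be technical.

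Cells make serine from a glycolytic intermediate in a short pathway: PHGDH, PSAT1 and PSPH act in that order. SHMT2 in mitochondria and SHMT1 in the cytosol split serine into glycine and a carbon unit bound to folate. In mitochondria MTHFD2 oxidises that unit, MTHFD1L releases it as formate for export, and ALDH1L2 can instead burn it to CO2 while making NADPH, whereas the cytosolic enzyme MTHFD1 takes formate up again for purine and thymidylate synthesis. ASNS makes asparagine from aspartate, with glutamine as the nitrogen donor. Several of these genes, PHGDH, PSAT1, SHMT2, MTHFD2 and ASNS among them, are known targets of ATF4, the transcription factor of the amino acid and integrated stress responses, which binds composite C/EBP-ATF elements. TGFβ is known from fibroblasts to raise serine and glycine synthesis, where the glycine enters collagen.

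Promoter windows of RefSeq (GRCh38.p14, 250 bases before to 50 after a start) were held for 7 of the 10 genes, in 11 windows, and not for ALDH1L2, PSPH or SHMT2. They were searched on both strands for the C/EBP-ATF core TGATGNAA and for the E-box CACGTG, which do not overlap each other in letters. The first stood in 3.62% of all 35116 windows in the table and the second in 7.26%. ASNS and MTHFD1L held TGATGNAA, and MTHFD1 and MTHFD1L held CACGTG. The stretches below are shown because ASNS and PSAT1 were the genes higher with Aramchol added to TGFβ, and MTHFD1L the one with the largest TGFβ fold change among the 10. Capitals mark the match to TGATGNAA.
ASNS, chr7:97872458-97872487, minus strand: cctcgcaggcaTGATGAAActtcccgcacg
MTHFD1L, chr6:150866346-150866375, plus strand: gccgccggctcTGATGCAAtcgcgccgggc
PSAT1, chr9:78297005-78297124, plus strand: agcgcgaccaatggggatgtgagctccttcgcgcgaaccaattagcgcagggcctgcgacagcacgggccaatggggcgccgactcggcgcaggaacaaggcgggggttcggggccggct
The ASNS match began at position -68 from one of 2 RefSeq starts, and its other window, from a later start, held none. In MTHFD1L 3 overlapping windows held 1 and the same match, at -90, -129 or 24 depending on the start. The PSAT1 stretch is the 120 bases before its start and holds neither motif, and no window of PHGDH, MTHFD2 or SHMT1 held either. A match is a description of letters and not a binding site, and the absence of one says only that these letters are not in these windows.

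Levels are CPM, counts scaled to library size with TMM factors, and tests are edgeR's quasi-likelihood test with Benjamini-Hochberg adjustment over all 21567 genes tested, with a call at an adjusted p under 0.05. Libraries held 52279922 to 70339925 counts. TGFβ moved a large part of the transcriptome, and Aramchol a small part. Of the markers that define cholangiocytes, KRT7 was abundant, averaging 938 ± 78.1 CPM with TGFβ and 552 ± 241 CPM in vehicle libraries (SD, n = 3 each), while CFTR (0 to 3 counts) was close to 0 in every library. Of the 5 hepatocyte markers, 4 (ALB among them) had at most 11 counts in any library, and HNF4A, a hepatocyte transcription factor, averaged 3.65 ± 1.71 CPM with TGFβ + Aramchol, 6.81 ± 2.35 with TGFβ, 0.343 ± 0.0843 with Aramchol and 0.330 ± 0.101 CPM with vehicle, and was called higher with TGFβ against vehicle (log2 fold change 4.34). Of the 4 leukocyte markers, 3 (PTPRC among them) had at most 9 counts, and CD14 averaged 6.25 ± 0.961, 5.47 ± 0.421, 28.5 ± 0.527 and 31.3 ± 3.19 CPM in the same 4 groups and was called lower with TGFβ (-2.51). The 4 endothelial markers summed to at most 15.0 CPM in any library, and 1 of them, PECAM1, was called with TGFβ, lower. The 5 fibroblast markers summed to 254 to 287 CPM in TGFβ + Aramchol libraries, 324 to 378 CPM with TGFβ, 149 to 152 CPM with Aramchol and 136 to 171 CPM with vehicle, and 4 of the 5 were called with TGFβ against vehicle, 3 of them higher. The 8 cholangiocyte markers summed to 1163 to 1308, 1328 to 1468, 718 to 887 and 578 to 1057 CPM in the same 4 groups. Of the 6 tested, 3 were higher with TGFβ (KRT7, SLC4A2 and AQP1) and 3 lower (KRT19, EPCAM and SOX9). KRT19 averaged 18.4 ± 2.19 CPM with TGFβ and 27.4 ± 8.96 with vehicle. EPCAM averaged 3.37 ± 0.323 and 7.76 ± 1.04 CPM, and SOX9 5.57 ± 0.902 and 10.0 ± 0.961. KRT7 and SLC4A2 (424 ± 22.1 and 281 ± 15.5 CPM) held most of each sum, which hides the lower markers. Of the fibroblast markers, PDGFRB averaged 205 CPM with TGFβ and 47.7 with vehicle, and THY1 123 and 89.6 CPM. PDGFRB and THY1 held most of each fibroblast sum, which hides the other markers. LUM was also called higher with TGFβ. PDGFRA was called lower, at 6.64 CPM against 9.96 with vehicle, and DCN was not called (7.74 against 7.60). Fibroblast and cholangiocyte marker sums were higher in every library with TGFβ than in every library without it. The part of these markers in the results below was not tested. In RNA from whole cultures, a change in how many cells express a gene and a change in RNA per cell cannot be told apart.

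**Figure D1:**
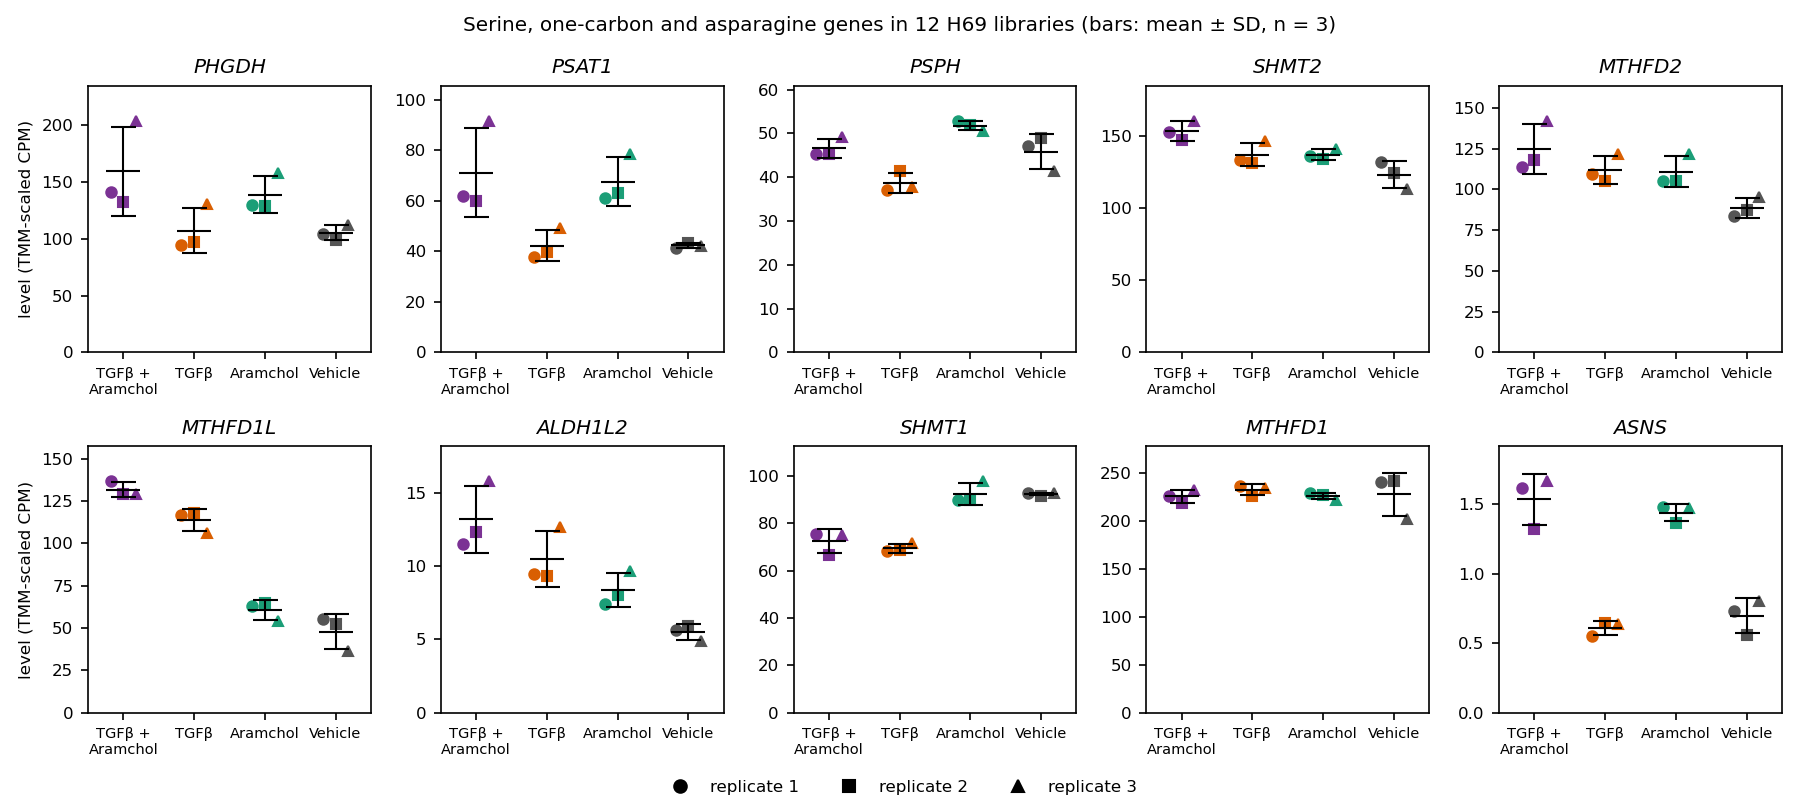
Level of each gene in the 12 libraries (y axis, TMM-scaled CPM from 0; 1 panel per gene with its own scale) for TGFβ + Aramchol, TGFβ, Aramchol and vehicle. Points are libraries with a shape per replicate number, and bars are mean ± SD (n = 3). MTHFD1L separates the groups with TGFβ from those without it, ASNS the groups with Aramchol from those without it, and MTHFD1 neither.

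To set genes beside each other, levels were divided by length, as RPKM (CPM per kilobase of annotated exon). In vehicle libraries SHMT2 was the highest, at 26.9 ± 2.06 RPKM (SD, n = 3), followed by PSAT1 at 19.2 ± 0.466 and PSPH at 16.6 ± 1.44. SHMT1 (13.2 ± 0.0741), MTHFD1 (13.1 ± 1.30) and PHGDH (11.5 ± 0.712) came next, and the spreads of SHMT1 and MTHFD1 overlapped, as did those of MTHFD1 and PHGDH. MTHFD1L stood at 9.80 ± 2.11 RPKM, and its wide spread overlapped those of PHGDH above it and of MTHFD2 under it, at 7.74 ± 0.517. ALDH1L2 followed at 0.577 ± 0.0567 RPKM, and ASNS, whose exons are in large part shared with another gene as described further on, at 0.143 ± 0.0257 RPKM. With TGFβ, MTHFD1L moved to the second place of the order, at 23.3 ± 1.33, between SHMT2 at 29.9 ± 1.77 and PSAT1 at 19.1 ± 2.78 RPKM. The length used is all annotated exon sequence of a gene. It is long for MTHFD1 (17357 bases), MTHFD2 (11443), ALDH1L2 (9493) and PHGDH (9187), which lowers their values. For PSAT1 (2206 bases) and PSPH (2762) it is short. In CPM, PHGDH averaged 105 with vehicle, above PSPH at 45.8 and PSAT1 at 42.3. The order above is therefore one of counts per annotated length.

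Of the serine synthesis enzymes, PSAT1 rose when Aramchol was added to TGFβ, PSPH fell with TGFβ, and PHGDH passed only with both agents against vehicle. PSAT1 (ENSG00000135069, chromosome 9, 78297125 to 78330093), the aminotransferase in the middle of the pathway, had 61.9, 60.0 and 91.7 CPM with TGFβ + Aramchol, against 37.7, 39.8 and 49.2 CPM with TGFβ. It had 61.0, 63.1 and 78.6 CPM with Aramchol, against 41.3, 43.4 and 42.2 CPM with vehicle. In both settings every library with Aramchol lay above every library without it. PSAT1 rose 1.69-fold when Aramchol was added to TGFβ (log2 fold change 0.75, SE 0.14, adjusted p = 0.0154). Against vehicle, Aramchol gave 1.60-fold (log2 0.68, SE 0.14), with an adjusted p of 0.0603, which did not pass. The first call was lost without TGFβ replicate 1 (adjusted p = 0.0776) or 2 (0.0757) and in a robust fit (0.0614), and the second comparison passed without TGFβ + Aramchol replicate 3 (0.00941) or vehicle replicate 3 (0.0321). TGFβ alone left PSAT1 at a log2 fold change of -0.0029 (95% interval -0.31 to 0.30).

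PHGDH (ENSG00000092621, chromosome 1, 119648411 to 119744218), which takes the first and committing step, had a similar order of levels. Its levels were 141, 133 and 204 CPM with TGFβ + Aramchol, against 94.7, 96.9 and 130 CPM with TGFβ. With Aramchol they were 130, 129 and 158 CPM, against 105, 99.0 and 112 CPM with vehicle. The groups did not overlap in either pair, though the lowest TGFβ + Aramchol library stood just above the highest TGFβ library. PHGDH did not pass in either Aramchol comparison: it was 1.49-fold higher when Aramchol was added to TGFβ (log2 0.57, SE 0.15, adjusted p = 0.0561) and 1.32-fold higher with Aramchol against vehicle (adjusted p = 0.299). The first of these passed without replicate 3 of Aramchol (adjusted p = 0.0438), TGFβ (0.0405) or vehicle (0.0264). With both agents against vehicle PHGDH rose 1.51-fold (adjusted p = 0.00448).

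PSPH (ENSG00000146733, chromosome 7, 56011051 to 56051604), the phosphatase that releases serine, was the only enzyme of the 3 called with TGFβ. It had 37.0, 41.3 and 37.9 CPM with TGFβ, against 47.1, 49.0 and 41.4 CPM with vehicle. The highest TGFβ library lay just under the lowest vehicle library. PSPH fell 1.18-fold with TGFβ (log2 fold change -0.24, SE 0.068, adjusted p = 0.0104), a call lost without TGFβ replicate 1 (adjusted p = 0.0542) or vehicle replicate 2 (0.0624). It had 45.3, 45.2 and 49.2 CPM with TGFβ + Aramchol and 52.9, 51.9 and 50.7 CPM with Aramchol. The pair of TGFβ + Aramchol over TGFβ gave a log2 fold change of 0.27 (adjusted p = 0.0558), which did not pass. It passed in 8 of the 10 alternative settings listed under the processing. Of the 12 fits with 1 library left out, it passed in 1, without vehicle replicate 3 (0.0104). With both agents PSPH differed from vehicle by 0.02 (95% interval -0.12 to 0.17). A pseudogene of PSPH, PSPHP1, held 274 to 449 counts, 10.8 to 15.4% of the PSPH count in the same library, and the sources used here do not say how reads common to both were assigned; the other 18 pseudogenes of these genes had at most 18 counts.

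Of the paired serine hydroxymethyltransferases, SHMT1 fell with TGFβ, and SHMT2 passed only with both agents against vehicle. SHMT1 (ENSG00000176974, chromosome 17, 18327860 to 18363563), the cytosolic enzyme, had 68.3, 68.6 and 71.5 CPM with TGFβ, against 92.7, 91.8 and 92.7 CPM with vehicle. It had 75.5, 66.7 and 75.2 CPM with TGFβ + Aramchol, against 89.9, 89.9 and 97.9 CPM with Aramchol. Every library with TGFβ lay under every library without it. SHMT1 fell 1.33-fold with TGFβ alone (log2 fold change -0.41, SE 0.057, adjusted p = 2.82e-05) and 1.28-fold with TGFβ in the presence of Aramchol (-0.35, SE 0.056, adjusted p = 0.000161). Aramchol left it at 0.0034 against vehicle (95% interval -0.12 to 0.12) and at 0.06 when added to TGFβ (95% interval -0.059 to 0.18). On the other strand, exons of SMCR8 (3771 to 6250 counts) cover 2.81% of the exon bases of SHMT1. The strand setting of the counts is not given.

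SHMT2 (ENSG00000182199, chromosome 12, 57229573 to 57234935), the mitochondrial enzyme, passed in none of the 4 single-agent comparisons. Its levels were 153, 147 and 161 CPM with TGFβ + Aramchol, 133, 132 and 147 CPM with TGFβ, 136, 134 and 142 CPM with Aramchol, and 132, 124 and 113 CPM with vehicle. The log2 fold changes were 0.15 to 0.16 in each of the 4 single-agent comparisons, with adjusted p of 0.0654 for TGFβ against vehicle and 0.0620 for TGFβ + Aramchol against Aramchol. Without vehicle replicate 1 both passed (adjusted p = 0.0214 and 0.0448), and without vehicle replicate 3 the second did (0.0245). With both agents against vehicle SHMT2 rose 1.25-fold (log2 0.32, SE 0.062, adjusted p = 0.000875), and the lowest library with both agents was above the highest vehicle library.

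Of the mitochondrial folate enzymes downstream of SHMT2, MTHFD1L (ENSG00000120254, chromosome 6, 150865679 to 151101887) changed most. It had 117, 118 and 106 CPM with TGFβ, against 55.4, 52.3 and 36.1 CPM with vehicle. It had 137, 130 and 129 CPM with TGFβ + Aramchol, against 63.2, 65.1 and 54.1 CPM with Aramchol. All 6 libraries with TGFβ lay above all 6 without it, and the gap was wider than the spread of any group. MTHFD1L rose 2.38-fold with TGFβ against vehicle (log2 1.25, SE 0.12, adjusted p = 4.82e-07) and 2.17-fold with TGFβ + Aramchol against Aramchol (1.12, SE 0.12, adjusted p = 2.00e-06). Aramchol gave log2 values of 0.34 against vehicle (adjusted p = 0.264) and 0.21 when added to TGFβ (adjusted p = 0.373), neither of which passed. Under both agents MTHFD1L was 2.75-fold above vehicle (log2 1.46, adjusted p = 1.02e-07).

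MTHFD2 (ENSG00000065911, chromosome 2, 74186172 to 74217565), the dehydrogenase and cyclohydrolase upstream of MTHFD1L, had 110, 105 and 122 CPM with TGFβ, against 83.5, 87.2 and 95.1 CPM with vehicle. It had 114, 118 and 142 CPM with TGFβ + Aramchol, against 105, 105 and 122 CPM with Aramchol. TGFβ and vehicle libraries did not overlap, while the other pair did. MTHFD2 rose 1.27-fold with TGFβ (log2 0.34, SE 0.087, adjusted p = 0.00573), and TGFβ + Aramchol against Aramchol gave 0.17 (adjusted p = 0.161). Aramchol against vehicle gave 0.32 (adjusted p = 0.146, or 0.0366 without vehicle replicate 3). Both agents together raised it 1.41-fold over vehicle (adjusted p = 0.000338). Exons of genes on the other strand cover 14.15% of its exon sequence, and the larger of them, SLC4A5, had only 9 to 19 counts.

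ALDH1L2 (ENSG00000136010, chromosome 12, 105019784 to 105107643), which oxidises mitochondrial formyl folate to CO2, was low but rose with TGFβ. It had 9.45, 9.30 and 12.7 CPM with TGFβ, against 5.65, 5.91 and 4.88 CPM with vehicle. It had 11.5, 12.3 and 15.8 CPM with TGFβ + Aramchol, against 7.42, 8.05 and 9.68 CPM with Aramchol. In both pairs the libraries with TGFβ were all above those without it. ALDH1L2 rose 1.91-fold with TGFβ against vehicle (log2 0.93, SE 0.15, adjusted p = 0.000131) and 1.57-fold with TGFβ + Aramchol against Aramchol (0.65, SE 0.15, adjusted p = 0.00270). Aramchol against vehicle gave a log2 fold change of 0.62 without overlap of the groups, but an adjusted p of 0.110, and 0.34 when added to TGFβ (adjusted p = 0.247). Under both agents ALDH1L2 rose 2.41-fold over vehicle (adjusted p = 6.57e-06). ALDH1L2 held 339 to 1061 counts. On the other strand, exons of WASHC4 (3512 to 5396 counts) cover 1.38% of its exon bases, and those of NOPCHAP1 (640 to 848 counts) 1.53%. With the strand setting not given, the part of reads from these genes was not tested.

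MTHFD1 (ENSG00000100714, chromosome 14, 64388031 to 64463457), the cytosolic enzyme that takes up formate, passed in no comparison. It averaged 226 ± 6.50 CPM with TGFβ + Aramchol, 233 ± 5.65 with TGFβ, 226 ± 3.34 with Aramchol and 228 ± 22.5 CPM with vehicle (SD, n = 3 each), and its log2 fold changes lay between -0.04 and 0.03. The 95% interval for TGFβ against vehicle was -0.10 to 0.16, so a change of the size seen in MTHFD1L lies outside it.

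A ratio of the counts of a pair of genes within a library does not depend on scaling, and the pairs below were chosen after their values were seen. The count of MTHFD1L, which makes formate, over that of MTHFD1, which uses it, was 0.494, 0.523 and 0.453 with TGFβ, against 0.230, 0.216 and 0.179 with vehicle. It was 0.606, 0.591 and 0.556 with TGFβ + Aramchol, against 0.276, 0.287 and 0.243 with Aramchol. The SHMT2 count over the SHMT1 count averaged 1.97 ± 0.0664 with TGFβ and 1.34 ± 0.103 with vehicle, and 2.12 ± 0.0919 with TGFβ + Aramchol and 1.48 ± 0.0367 with Aramchol (SD, n = 3 each). For both pairs the mitochondrial gene had gained on the cytosolic one in every library with TGFβ, with no overlap with the libraries without it.

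ASNS gave the largest fold changes with Aramchol among the 10 genes, from very few reads. It had 1.62, 1.33 and 1.67 CPM with TGFβ + Aramchol, against 0.554, 0.643 and 0.636 CPM with TGFβ. It had 1.48, 1.37 and 1.47 CPM with Aramchol, against 0.729, 0.560 and 0.806 CPM with vehicle. Every library with Aramchol was above every library without it. ASNS rose 2.51-fold when Aramchol was added to TGFβ (log2 1.33, SE 0.19, adjusted p = 0.00428) and 2.05-fold with Aramchol against vehicle (1.04, SE 0.19, adjusted p = 0.0307). The second call was lost on leaving out any Aramchol library (adjusted p = 0.134, 0.105 and 0.0563 for replicates 1, 2 and 3), TGFβ replicate 2 (0.0531) or vehicle replicate 1 (0.0911) or 2 (0.150). TGFβ against vehicle gave -0.20 (adjusted p = 0.493), and both agents together 2.19-fold above vehicle (adjusted p = 0.000182).

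The ASNS count may not hold all reads of its transcripts. A gene on the same strand, ENSG00000284707, for which the name table holds no symbol, spans 97851688 to 97972985 on chromosome 7 and overlaps ASNS (ENSG00000070669, 97851677 to 97872542). Its exons hold 2415 of the 4896 exon bases of ASNS, 49.33%, and all 1683 coding bases of ASNS in GENCODE release 29. The sources used here do not say whether reads in the shared bases were dropped, split or given to 1 gene. The low level of ASNS can therefore not be compared with that of the other genes, and its values rest on 33 to 112 reads per library. If shared reads were dropped, the ASNS count would hold no reads from the coding bases. The fold changes of ASNS would then rest on its remaining exon bases. Whether they hold for its coding transcripts was not tested. ENSG00000284707 itself had 65 to 159 reads and was called in no comparison: its log2 fold change was 0.04 (adjusted p = 0.955) for TGFβ + Aramchol against TGFβ and 0.25 (adjusted p = 0.628) for Aramchol against vehicle. No exon of PHGDH, PSAT1, PSPH or MTHFD1L is shared with another gene of the table.

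**Figure D2:**
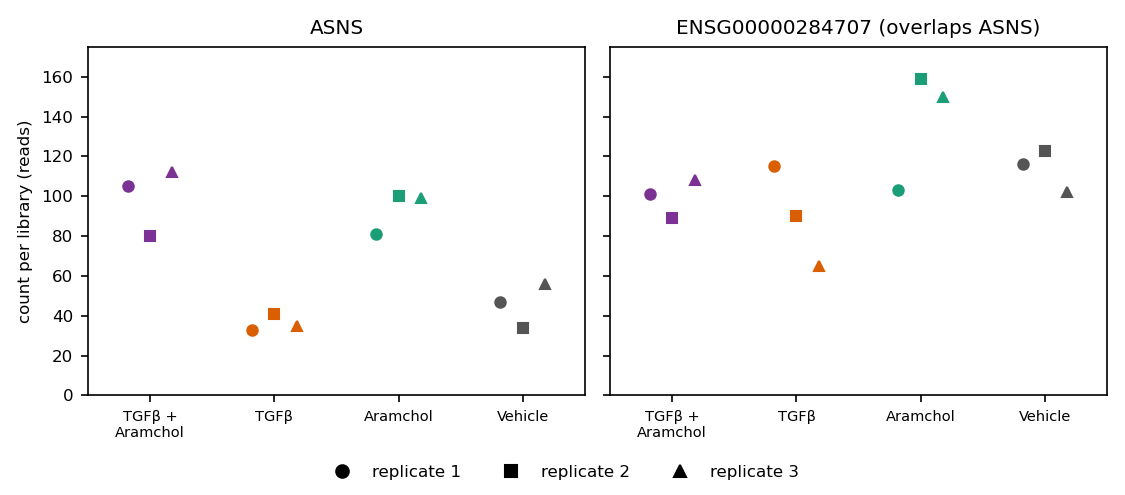
Counts per library (y axis, reads, not scaled) of ASNS and of ENSG00000284707, the same-strand gene whose exons hold 49.33% of the exon bases of ASNS, in the 4 groups. Libraries with Aramchol hold more ASNS reads than all libraries without it, within a range of 33 to 112, and ENSG00000284707 shows no such split.

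Calls among the 10 genes are given here beside those over all genes tested. TGFβ against vehicle called 5 of the 10, MTHFD1L, MTHFD2 and ALDH1L2 higher and SHMT1 and PSPH lower, where 37% of all tested genes were called (18.9% higher and 18.1% lower). The median log2 fold change was 0.03 over the 10 genes and -0.03 over all tested genes. Aramchol against vehicle called 1, ASNS, where 0.357% of all genes were called (0.236% higher and 0.121% lower). The median of the 10 was 0.33, against -0.0058 over all genes, and 8 of the 10 had an unadjusted p under 0.05, as did 11.7% of all genes. Aramchol added to TGFβ called 2, ASNS and PSAT1, both higher, where 2.25% of all genes were called (0.89% higher and 1.36% lower), and the medians were 0.24 for the 10 and -0.0007 for all genes. Over all genes the number called with Aramchol moved when single libraries were left out: against vehicle they numbered 77, but 16 without Aramchol replicate 2 and 611 without vehicle replicate 3, and when added to TGFβ they numbered 486, but 55 without TGFβ + Aramchol replicate 1 and 1209 without vehicle replicate 3. TGFβ in the presence of Aramchol called 3, MTHFD1L and ALDH1L2 higher and SHMT1 lower, where 30.2% of all genes were called (16% higher and 14.2% lower). With both agents against vehicle 8 were called, SHMT1 lower and 7 higher, where 35.2% of all genes were called (18.2% higher and 17% lower), and the medians were 0.55 for the 10 and -0.02 for all genes. The genes not called there were PSPH and MTHFD1. These comparisons share libraries: the vehicle group enters 3 of them, and so does the group with both agents.

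**Figure D3:**
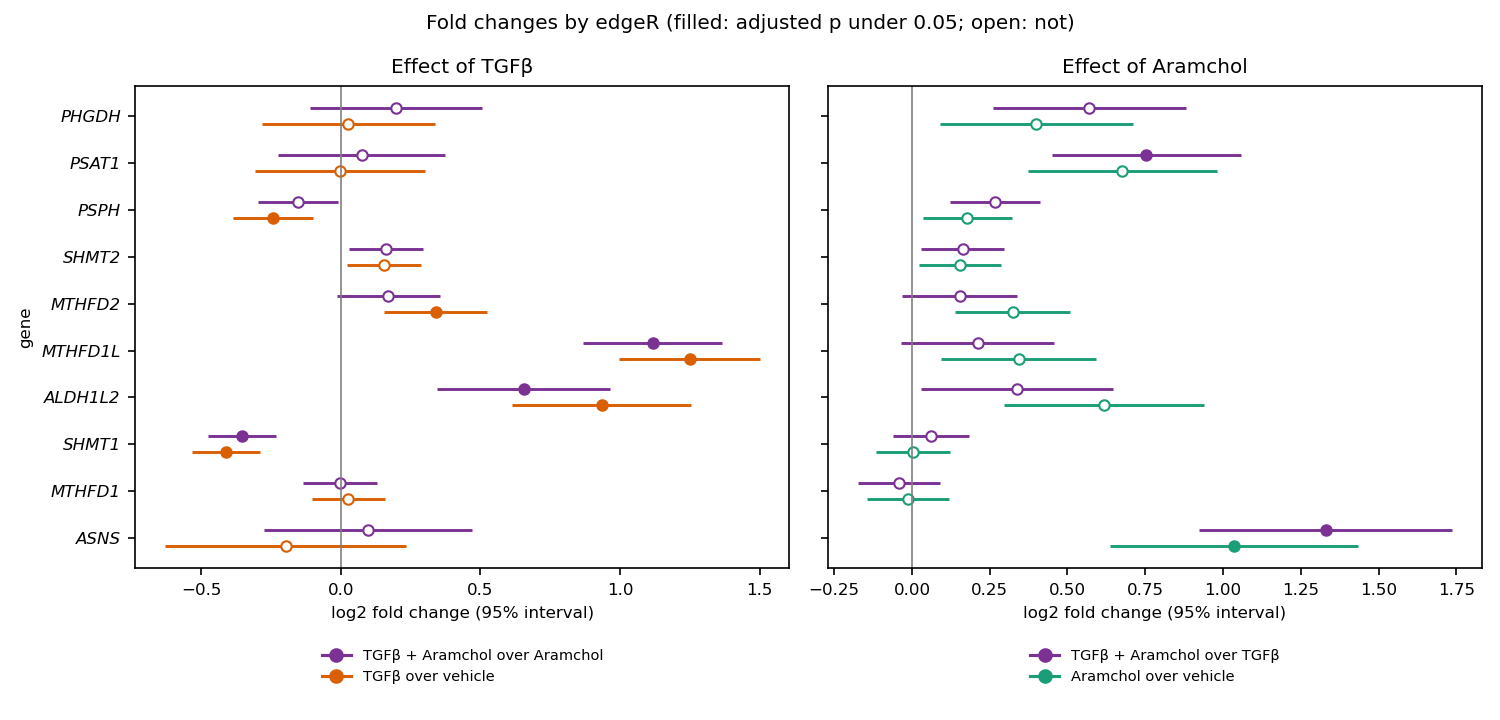
Log2 fold changes of the 10 genes (x axis) with their 95% intervals, for TGFβ at left and Aramchol at right, each in the presence and in the absence of the other agent. Filled points passed at an adjusted p under 0.05. MTHFD1L and ALDH1L2 stand to the right and SHMT1 to the left under TGFβ, and PSAT1 and ASNS to the right under Aramchol. Intervals of PHGDH, PSPH, SHMT2 and ALDH1L2 also lie wholly right of no change in both Aramchol comparisons, with open points. Under TGFβ those of SHMT2 lie wholly to the right and those of PSPH wholly to the left in both comparisons.

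No gene of the 10 passed the test of the difference between the TGFβ effect with and without Aramchol, by edgeR or by DESeq2, and none had an unadjusted p under 0.05, where 0.0139% of all genes, 3 in number, were called by edgeR. The interaction estimates ran from -0.28 for ALDH1L2 (95% interval -0.72 to 0.16) to 0.29 for ASNS (-0.28 to 0.86). The intervals leave room for a change of the TGFβ effect of more than 1.5-fold in PHGDH, ALDH1L2 and ASNS, so a shared response was not shown. For SHMT1 and MTHFD1 the intervals were narrower, at -0.11 to 0.23 and -0.22 to 0.16.

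Across the 4 groups the libraries numbered 3 stood apart from those numbered 1 and 2 for 5 of the 10 genes, where 12.6% of all genes differed in the same way. PHGDH was higher in libraries numbered 3 by a log2 value of 0.36 (adjusted p = 0.000110) and MTHFD2 by 0.21 (0.000441), each with its highest library in 4 of 4 groups. PSAT1 was higher by 0.33 (adjusted p = 0.00139) and ALDH1L2 by 0.26 (0.0490), each in 3 of 4 groups, and MTHFD1L was lower in 4 of 4 groups (log2 value -0.24, adjusted p = 0.00896). What the libraries numbered 3 share is not given in the labels, and its part in the results was not tested beyond the fits that follow. With a term for these libraries, edgeR called 6 of the 10 genes with Aramchol against vehicle, all higher: PHGDH, PSAT1, MTHFD1L, MTHFD2, ALDH1L2 and ASNS. PSAT1 then had a log2 fold change of 0.66 (adjusted p = 0.000253) and PHGDH 0.39 (adjusted p = 0.00453). Within the libraries numbered 1 and 2 alone the same 6 were called, with ASNS at 1.14, PSAT1 at 0.55, ALDH1L2 at 0.42, PHGDH at 0.35, MTHFD2 at 0.31 and MTHFD1L at 0.25. All genes called in Aramchol against vehicle numbered 538 with that term and 1544 within the libraries numbered 1 and 2, against 77 without either. For Aramchol added to TGFβ, 5 of the 10 were called with the term (PHGDH, PSAT1, PSPH, MTHFD2 and ASNS) and 7 within the libraries numbered 1 and 2 (PHGDH, PSAT1, PSPH, SHMT2, MTHFD1L, ALDH1L2 and ASNS), all higher, where all genes called numbered 1683 and 1853, against 486.

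For the genes whose group means spanned a log2 value of at least 1, the protein coding genes of most similar course over the 12 libraries were sought by the root mean square difference of their log2 levels, each centred on its own mean. MTHFD1L came closest to LAMB3, a laminin chain, at 0.115, then to SYN1 at 0.131 and ITGA5, an integrin chain, at 0.134. ALDH1L2 came closest to BEND6 at 0.137, SEC24D, a component of the COPII coat, at 0.196 and AVEN at 0.205. ASNS came closest to CHAC1, a glutathione-degrading enzyme and ATF4 target, at 0.302, then to the glycine transporter SLC6A9 at 0.309 and PSAT1 at 0.312. PHGDH and PSAT1 spanned less than 1 and were looked at after their values were seen: each was the nearest gene to the other, at 0.132, followed by PCK2 for PHGDH at 0.145 and SLC6A9 for PSAT1 at 0.184. These are descriptions over 12 libraries that share the treatment groups. PHGDH and PSAT1 were also both higher in the libraries numbered 3, and the part of that shift in their closeness was not tested.

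Genes around these pathways were counted in 7 lists, and with TGFβ against vehicle each count stands beside the 37% of all genes called there (18.9% higher and 18.1% lower). In serine and glycine handling, 11 of 20 genes (55%) were called with TGFβ against vehicle, 7 higher and 4 lower. SERINC2, of a family tied to serine incorporation into lipids, averaged 150 ± 19.3 CPM with TGFβ and 62.2 ± 4.47 CPM with vehicle (SD, n = 3 each; log2 fold change 1.27, adjusted p = 2.72e-08). The neutral amino acid transporters SLC1A5 (0.50, adjusted p = 1.05e-05) and SLC1A4 (0.37, adjusted p = 0.000212) rose too. With Aramchol added to TGFβ 2 of the 20 were called, both higher, where 0.89% of all genes were: SLC38A2, a transporter of small neutral amino acids, averaged 655 ± 53.0 CPM with TGFβ + Aramchol and 488 ± 9.21 CPM with TGFβ (0.42, adjusted p = 0.00251), and SLC6A9 averaged 13.0 ± 1.57 and 8.54 ± 1.18 CPM in the same groups (0.60, adjusted p = 0.0433). The same 2 were called higher with Aramchol against vehicle, where 0.236% of all genes were (SLC38A2 0.38, adjusted p = 0.0104; SLC6A9 0.81, adjusted p = 0.0307). SLC6A9 lost its call without any of 7 libraries in that comparison and without any of 8 when Aramchol was added to TGFβ, and SLC38A2 lost the one against vehicle without Aramchol replicate 1 or 2 or vehicle replicate 1.

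Of 14 other folate genes tested, 5 were lower and 1 higher with TGFβ, 42.9% in all and near the 37% of all genes. MTHFD2L, a mitochondrial relative of MTHFD2, averaged 3.57 ± 0.343 CPM with TGFβ and 7.20 ± 0.917 CPM with vehicle (SD, n = 3 each; log2 fold change -1.01, adjusted p = 6.86e-06 in edgeR). ALDH1L1, the cytosolic counterpart of ALDH1L2, fell too (-1.84, adjusted p = 2.78e-05), with 17 to 24 reads per library with TGFβ, against 66 to 89 with vehicle. The median of the list was -0.13. In purine synthesis, which uses formyl folate, 4 of 6 genes were higher and none lower, each by little, with PAICS at 0.25 (adjusted p = 0.00375) and GART at 0.19 (adjusted p = 0.00663). The median of the list was 0.17. ATIC and PPAT, also called, lost their calls when 1 of several libraries was left out. In the methionine cycle 2 of 10 genes were called, MAT2B (-0.32, adjusted p = 0.000395) and AHCYL1 (-0.25, adjusted p = 0.00308), both lower, a share of 20% that lay under the 37% of all genes.

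Among aspartate, asparagine and glutamine enzymes, 3 of 9 were higher and 3 lower with TGFβ, where 18.9% of all genes were higher and 18.1% lower. ASS1, which joins aspartate to citrulline, averaged 488 ± 47.3 CPM with TGFβ and 230 ± 14.2 CPM with vehicle (log2 fold change 1.08, adjusted p = 6.65e-07), and GLUL, glutamine synthetase, fell (-0.41, adjusted p = 0.000310). Of the 4 proline synthesis genes 3 were higher, PYCR1 at 0.98 (adjusted p = 0.000122), ALDH18A1 at 0.41 (adjusted p = 6.06e-06) and PYCR3, whose call (0.38, adjusted p = 0.0378) was lost without any of 5 libraries. None of these lists, nor the folate, purine and methionine lists, had a gene called by edgeR with Aramchol. Over these 5 lists and 43 genes tested, 7 had an unadjusted p under 0.05 and DESeq2 called 1 in Aramchol against vehicle, and 10 and 1 did so when Aramchol was added to TGFβ. Over all genes tested, 11.7% and 17.2% had an unadjusted p under 0.05 in these comparisons.

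The list of 12 amino acid response genes held regulators and also CHAC1, the enzyme and ATF4 target named above. Of the 12, 6 were called with TGFβ against vehicle and 4 with Aramchol in either setting. With TGFβ 5 were higher and 1 lower, 50% in all where 37% of all genes were called: ATF4 averaged 230 ± 1.61 CPM with TGFβ and 180 ± 11 CPM with vehicle (log2 fold change 0.35, adjusted p = 7.64e-05), SESN2 rose by 0.40 (adjusted p = 0.000460), and ATF5 was the lower one (-0.52, adjusted p = 0.000336). When Aramchol was added to TGFβ 4 of the 12 were called, all higher, where 0.89% of all genes were called higher. ATF4 averaged 293 ± 13.3 CPM with TGFβ + Aramchol, against the 230 ± 1.61 CPM with TGFβ (0.35, adjusted p = 0.00542). CHAC1 averaged 11.2 ± 1.55 and 4.72 ± 0.606 CPM in the same groups (1.24, adjusted p = 0.00134), and CEBPG, a partner of ATF4, 42.1 ± 1.28 and 30.3 ± 1.45 CPM (0.47, adjusted p = 0.00268). The remaining one was TRIB3 (0.45, adjusted p = 0.0228), which lost its call without any TGFβ or TGFβ + Aramchol library. The same 4 were called higher with Aramchol against vehicle, where 0.236% of all genes were, CHAC1 at 1.41 (adjusted p = 0.000742), CEBPG at 0.48 (0.00440), ATF4 at 0.43 (0.00248) and TRIB3 at 0.55 (0.0231). TRIB3 lost that call without Aramchol replicate 2 or 3 or vehicle replicate 2, and in a fit of only the groups compared TRIB3 (adjusted p = 0.181), CEBPG (0.117) and ATF4 (0.0660) all lost it. With both agents against vehicle 7 of the 12 were higher and none lower, where 18.2% of all genes were higher, with ATF4 at 0.70 (adjusted p = 4.98e-08).

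With TGFβ in the presence of Aramchol the lists gave the following counts, where 30.2% of all genes were called (16% higher and 14.2% lower). In serine and glycine handling 5 of 20 were higher and 3 lower, with SERINC2 at a log2 fold change of 1.21 (adjusted p = 6.95e-08). In the folate list 4 of 14 were lower and none higher, and in purine synthesis 3 of 6 were higher and none lower, with PPAT at 0.25 (adjusted p = 0.00302). Of the 9 aspartate, asparagine and glutamine enzymes 2 were higher and 2 lower, and of the 4 proline synthesis genes 2 were higher, with ALDH18A1 at 0.25 (adjusted p = 0.000872). In the methionine cycle 2 of 10 were lower, with MAT2B at -0.27 (adjusted p = 0.00216). In the amino acid response list 3 of 12 were higher and 1 lower, with ATF4 at 0.27 (adjusted p = 0.00103). With both agents against vehicle the serine and glycine list had 10 of 20 higher and 3 lower, and the folate list 6 of 14 lower and none higher, where 18.2% of all genes were higher and 17% lower. In the interaction no gene of the 7 lists was called by edgeR or DESeq2, and 2 had an unadjusted p under 0.05.

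**Figure D4:**
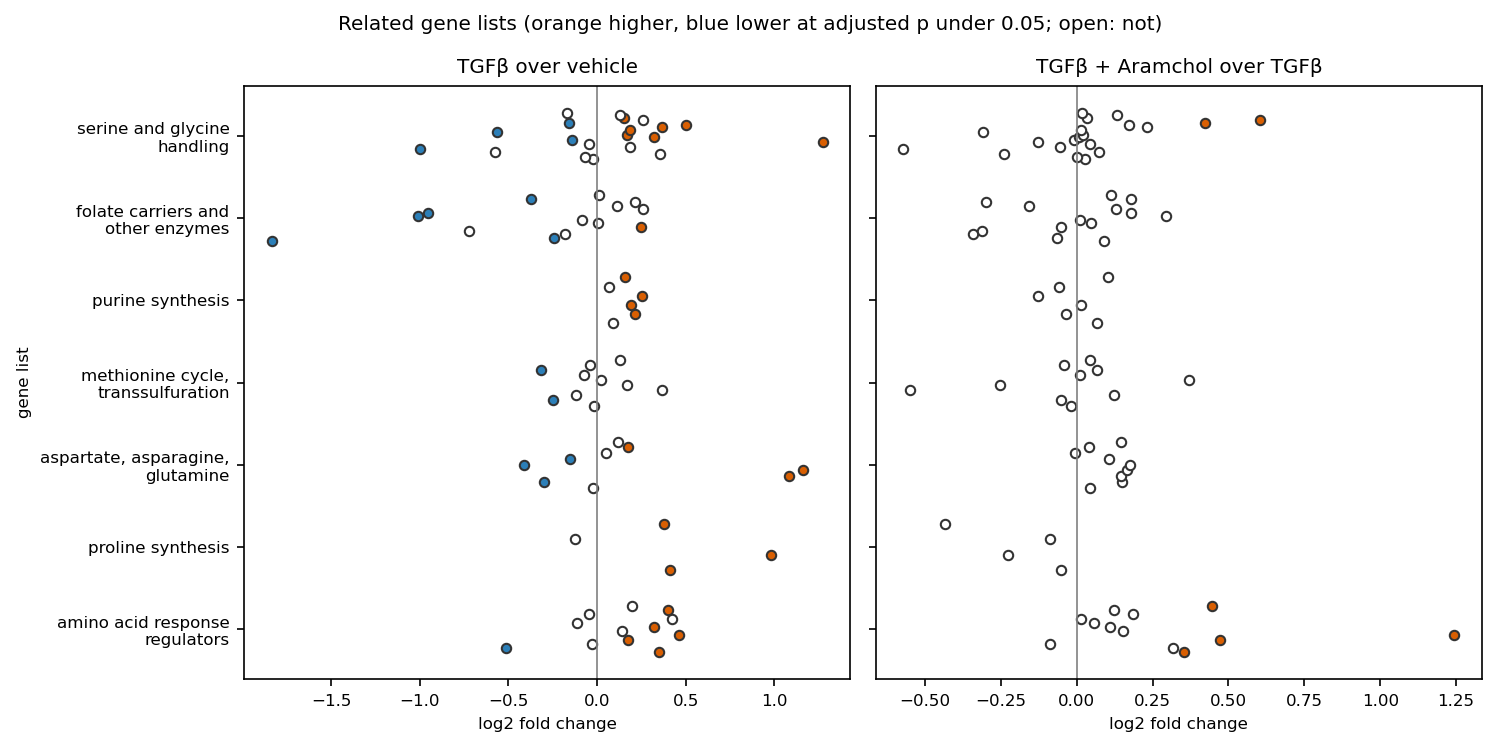
Log2 fold changes (x axis) of the genes of the 7 related lists, for TGFβ over vehicle at left and TGFβ + Aramchol over TGFβ at right, 1 point per gene. Filled points passed at an adjusted p under 0.05, orange higher and blue lower. With TGFβ the calls spread over all lists, and with Aramchol added to TGFβ they fall in the serine and glycine list (2) and the amino acid response list (4).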

How the data were processed

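Per the labels, RNA of 12 libraries was extracted with Trizol and made into libraries with an IDT kit. Per the submitters' processing notes the authors used STAR 2.7.9a, featureCounts of Subread and DESeq2, with GRCh38. The deposited table holds counts, whole numbers of reads, without molecular identifiers. Strand setting, annotation release and the handling of reads shared by several genes were not given in the sources used here. Reads of overlapping genes and pseudogenes may thus be misassigned or lost, as for ASNS.

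All 12 columns were matched to the labels, and no 2 libraries of a group were duplicates. filterByExpr kept 21567 genes (20616 of 62703 had no count). Counts were scaled by TMM and fitted in edgeR 4.0.16 (R 4.3.3) with a mean for each group, at a biological coefficient of variation of 8.90%. In all, 6 contrasts were tested. Intervals are 95% and use the fit's residual spread. Deposited gene lengths gave RPKM. Alternatives were scaling by RLE or upper quartile; DESeq2 1.42.0; a filter omitted or made stricter (10 counts in 3 libraries and a mean CPM of 1); replicate number as a block; a term for libraries numbered 3, or their omission; a robust fit; fits of only the groups compared; and each library left out. The procedure was also run on simulated counts. These held no TGFβ effect and no shift of the libraries numbered 3, so that run does not test the procedure under either.

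The genes, lists and tests were chosen with earlier results of these data known. All 10 genes were named in each comparison. From each related list, the 3 called genes of smallest p with TGFβ and the called gene of smallest p in each other comparison were to be named; further called genes were named after their values were seen, to account for a count. Some genes that this rule names are not reported here singly; counts and medians of the lists include them. Similar genes were the nearest 3 among protein coding genes of at least 5 CPM. Exon overlaps come from the exon positions in the deposited table, coding bases of ASNS from GENCODE release 29, and promoters from RefSeq GRCh38.p14.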

Additional observations from a re-analysis of the deposited data

How the results depend on the processing

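Of 1310 recomputed values, 1182 kept their direction and their side of the threshold, 68 came to pass, 12 no longer passed and 48 changed sign. None of the 48 was called in either setting, and none was larger than a log2 value of 0.150. Counts of the 10 genes called kept within 1.5 times with TGFβ, and with both agents, against vehicle. Elsewhere the cause of the changes was not tested. With Aramchol against vehicle (1 called) the count was 6 with no filter, 4 by DESeq2, 6 with a term for the libraries numbered 3, 6 with the libraries numbered 1 and 2 only and 0 with only the groups compared. With TGFβ + Aramchol against TGFβ (2 called) it was 4, 5, 7 and 5 with no filter, that term, those libraries and only the groups compared, and with TGFβ + Aramchol against Aramchol (3 called) 5, 6, 5 and 5. A replicate block gave 6, 4 and 5 in these 3 comparisons. Same-numbered libraries deviated together with correlations of 0.00582 to 0.190, 5 of 18 over 0.1 and 12 of 18 the highest for their own number. These were 0.0930 to 0.190 for libraries numbered 3, each the highest for its number, and 0.00582 to 0.0929 for numbers 1 and 2. Sample numbers in the column headers run by replicate number. The labels state no pairing, so the main fit had no block, and whether the numbers mark blocks was not settled. Leaving out 1 library gave 4 to 6 calls with TGFβ against vehicle, 0 to 3 with Aramchol against vehicle, 1 to 4 with TGFβ + Aramchol against TGFβ, 3 to 5 against Aramchol, 8 to 8 against vehicle and 0 to 0 in the interaction. Over all genes, calls with Aramchol against vehicle (77) numbered 531, 364, 464, 538, 1544 and 5 with no filter, DESeq2, the block, the term, the libraries numbered 1 and 2 and only the groups compared, with TGFβ + Aramchol against TGFβ (486) 1278, 1026, 1519, 1683, 1853 and 960, and in the interaction (3) 151, 29, 23, 31 and 191 with the first 5. Leaving out 1 library gave 16 to 611, 55 to 1209 and 0 to 7 in these 3 comparisons. Upper quartile scaling moved the split with TGFβ against vehicle to 3601 higher and 4553 lower, against 4070 and 3908.

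Sign changes were as follows. With TGFβ against vehicle PHGDH was -0.012 under upper quartile scaling and -0.088 in the libraries numbered 1 and 2, MTHFD1 -0.010 and -0.059 under the same settings, and PSAT1 0.0088 under RLE, 0.013 with no filter and 0.0096 by DESeq2. SHMT1 with Aramchol against vehicle was -0.019 under upper quartile scaling, -0.0079 with the stricter filter and -0.036 in the libraries numbered 1 and 2. With TGFβ + Aramchol against Aramchol MTHFD1 was 0.0037 with no filter and PSAT1 -0.028 in those libraries, and against vehicle PSPH was -0.027 under upper quartile scaling and -0.086 in those libraries. In the interaction MTHFD1 was 0.024 in those libraries, and SHMT2 -0.0051 under RLE, -0.0034 with no filter and -0.0051 by DESeq2. Leaving out 1 library, the ranges that crossed 0 were, with TGFβ against vehicle, PHGDH -0.13 to 0.11, PSAT1 -0.13 to 0.074 and MTHFD1 -0.052 to 0.072, and with Aramchol against vehicle SHMT1 -0.038 to 0.025 and MTHFD1 -0.093 to 0.031. With TGFβ + Aramchol against Aramchol they were PHGDH -0.020 to 0.31, PSAT1 -0.15 to 0.20 and MTHFD1 -0.023 to 0.015, and against vehicle PSPH -0.045 to 0.075 and MTHFD1 -0.095 to 0.029. In the interaction they were PHGDH -0.049 to 0.33, PSAT1 -0.15 to 0.20, SHMT2 -0.046 to 0.065, MTHFD1 -0.073 to 0.051 and MTHFD1L -0.25 to 0.037.

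Of the 76 calls named for related genes, 60 held without each library in turn and 66 under each other setting. The share of all promoter windows with TGATGNAA was 3.14%, and with CACGTG 6.34%, when the 50 bases after the start were left out. With 33 to 112 reads per library, ASNS rests on far fewer reads than the other 9 genes.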
